A study of Mus with 15 samples.

Results

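Heat shock genes code for molecular chaperones, the proteins that bind unfolded or newly made polypeptides and keep them from clumping, and for the factor that switches their transcription on. A set of 10 such genes was taken by symbol from a mouse skin gene count table that holds 55657 gene models. The set comprised the transcription factor gene Hsf1, the HSP70 genes Hspa1a, Hspa1b and Hspa8, the HSP110 gene Hsph1, the HSP90 gene Hsp90aa1, the J-domain genes Dnaja1 and Dnajb1, the small heat shock protein gene Hspb1 and the HSP60 gene Hspd1. All 10 were found once each and all 10 passed the filter on low counts, with between 243 and 35518 counts per library. Most of their products work in the cytosol and nucleus, but the label "cytosolic" is loose for 2 of them: HSP60, the product of Hspd1, folds proteins inside mitochondria, and HSF1 is not a chaperone.

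Poly-A RNA was sequenced from 3 groups of 5 libraries. The diabetic wound group was tissue from wounds of type I diabetic animals, the healthy wound group was wound tissue of mice without diabetes, and the normal skin group was skin of healthy mice with no wound. The time after wounding, the strain, age and sex of the mice and how diabetes was brought about are not stated by the sources used here. There was no group of diabetic mice without a wound. Against normal skin, diabetes and the response to a wound in a diabetic mouse therefore cannot be told apart. Against healthy wound, a difference already present in unwounded diabetic skin cannot be told from a changed response to the wound. Nothing in the labels says that the 5 libraries of a group came from 5 animals, so each p-value reflects the scatter among these samples only, some of which may be technical. Library totals were 15.7 to 16.7 M counts in diabetic wound, 17.4 to 17.7 M in healthy wound and 15.7 to 17.8 M in normal skin. The epidermal keratins Krt5 and Krt14 were present in every library, at 264 CPM or more and 696 CPM or more, as a skin sample should show, although both were lowest in diabetic wound replicate 4. Some libraries stood apart in tissue content. Diabetic wound replicates 4 and 5 were low in keratinocyte transcripts, and replicates 2 and 5 were lowest in collagen transcripts. Healthy wound replicate 2 was rich in hair follicle transcripts. Collagen transcripts were scarcer in every diabetic wound library than in any library of the other groups. Leaving out diabetic wound replicates 2 and 5 does not remove that difference. The Hspa1a and Hspa1b values and the chaperone calls are also given without diabetic wound replicates 4 and 5 and, where they moved, without replicates 2 and 5.

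In an unstressed cell HSF1 is held inactive, in part by chaperones themselves. When unfolded proteins draw the chaperones away, HSF1 forms trimers, enters the nucleus and binds heat shock elements in front of genes such as Hspa1a, Hspa1b, Hsph1, Dnajb1 and Hspb1, whose transcripts climb within minutes. Hspa8, in contrast, is made in all cells without stress. In skin, Hspb1 is also part of the normal differentiation of keratinocytes, and heat shock proteins are among the molecules studied in the repair of wounds.

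The genes lay on 8 chromosomes, at the positions given by the count table, whose build is not stated by the sources used here. Hsf1 lay on chromosome 15 (76477422 to 76501913, plus strand). Hspa1a (34969190 to 34972156) and Hspa1b (34956436 to 34959238) were neighbours on the minus strand of chromosome 17, and Hspa8 lay on chromosome 9 (40800984 to 40810087, plus strand). Hsph1 (149614287 to 149636376, minus strand) and Hspb1 (135887919 to 135889563, plus strand) were both on chromosome 5, far apart. Hsp90aa1 was on chromosome 12 (110690605 to 110702728, minus strand), Dnaja1 on chromosome 4 (40722150 to 40737149, plus strand), Dnajb1 on chromosome 8 (83608193 to 83612653, plus strand) and Hspd1 on chromosome 1 (55077835 to 55088243, minus strand). All 10 models were protein coding.

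Per transcript length, the genes spanned a wide range of levels. Levels as TPM (counts per transcript length, scaled to a common sum per library and computed from the counts and the gene lengths of the table) averaged 1043 ± 173 for Hspa8 and 1002 ± 569 for Hspb1 (SD, n = 15 libraries of all groups). Hsp90aa1 followed at 243 ± 58.3 TPM, Hspd1 at 205 ± 50.8 TPM and Hspa1b at 123 ± 55.9 TPM. These 5 genes sat high among everything expressed: 99.3% of the 17122 tested genes had a lower mean TPM than Hspa8, and 92.6% had a lower mean than Hspa1b. Dnajb1 averaged 78.8 ± 19.3 TPM, Dnaja1 46.0 ± 8.32 TPM, Hspa1a 32.2 ± 13.7 TPM and Hsph1 30.4 ± 12.2 TPM, and the regulator Hsf1 came last at 14.1 ± 3.56 TPM, near the middle of all tested genes. Neighbours in this order overlapped in range over the 15 libraries, except that Hspb1 (533 TPM or more) lay wholly above Hsp90aa1 (365 TPM or less). Within single libraries the order was firmer at some steps: Dnajb1 exceeded Dnaja1 and Hsph1 exceeded Hsf1 in 15 of 15 libraries, whereas Hspa8 exceeded Hspb1 in 10 of 15 and Hspa1a exceeded Hsph1 in 8 of 15. Together the 10 genes took a similar share of all counts in each group, 0.285% ± 0.0177 in diabetic wound, 0.283% ± 0.0705 in healthy wound and 0.277% ± 0.0243 in normal skin (SD, n = 5 each). Hspa8 held most of these counts, 379191 over the 15 libraries against 29358 for Hspa1b and 8140 for Hspa1a. The share therefore says little about the less abundant genes.

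**Figure D1:**
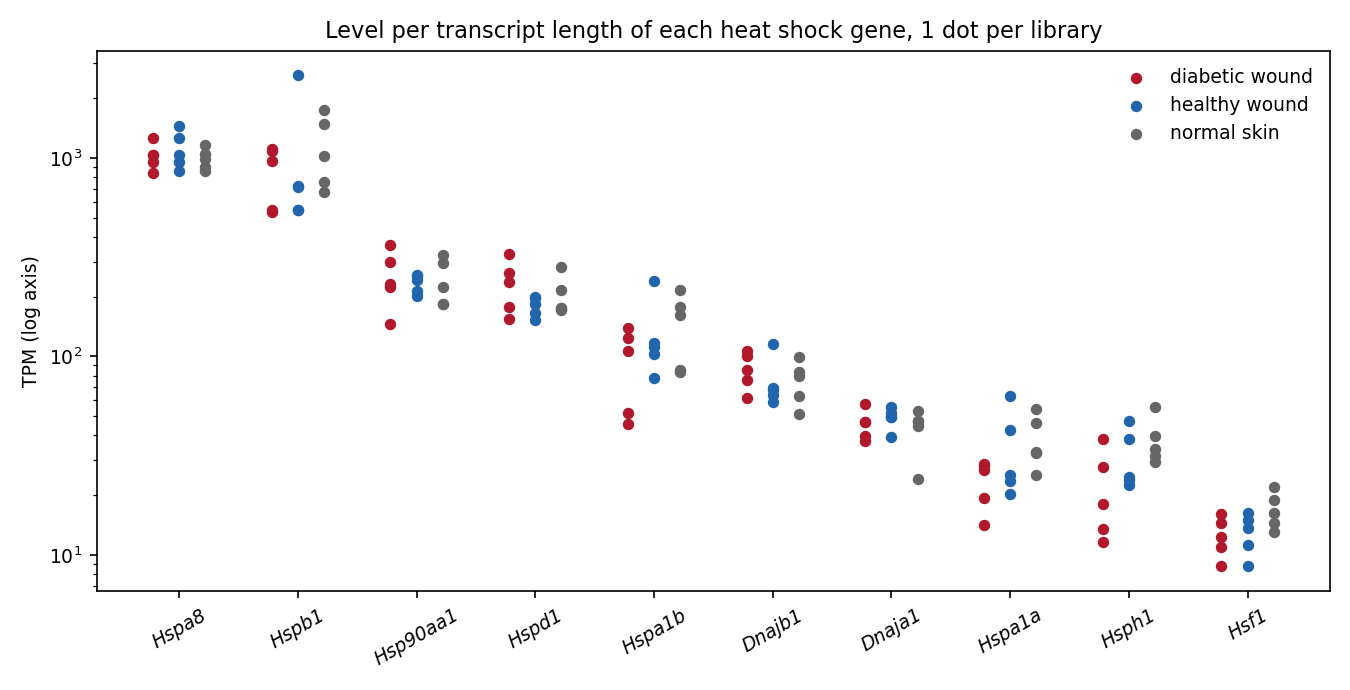
TPM (log axis) of the 10 heat shock genes in each of 15 libraries, with 1 dot per library and diabetic wound, healthy wound and normal skin side by side for each gene. Genes are ordered by mean level, from Hspa8 at 1043 TPM down to Hsf1 at 14.1 TPM, and the 3 groups overlap for each gene.

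None of the 10 genes differed between any pair of groups past the threshold. In the edgeR quasi-likelihood test, with p-values adjusted over all 17122 genes tested by Benjamini-Hochberg and a threshold of 0.05, 0 of 10 were called in diabetic wound against healthy wound, where 9.15% of all tested genes were called. The count was 0 of 10 in diabetic wound against normal skin, where 19.1% of all genes were called, and 0 of 10 in healthy wound against normal skin, where 1.13% were called. At an unadjusted p under 0.05 the same test held 1, 1 and 0 of the 10 genes in these comparisons, against 28.8%, 35.8% and 16.3% of all genes, and both DESeq2 and limma-voom called 0 of 10 in each comparison with 1, 1 and 0 at the unadjusted threshold. In no comparison did the 5 libraries of one group lie wholly above or below those of the other for any of the 10 genes, against 9.8%, 11.4% and 6.75% of all genes. The first 2 of these comparisons share the diabetic wound libraries, and each pair of comparisons shares a group, so they are not independent of one another.

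The fold changes scattered around 0. In diabetic wound against healthy wound 6 log2 fold changes were positive and 4 negative, with a median of 0.01 (all tested genes −0.02). In diabetic wound against normal skin 5 were positive and 5 negative (median −0.07, all genes −0.01), and in healthy wound against normal skin 2 were positive and 8 negative (median −0.16, all genes 0.01). The absence of a call does not show equality. The 95% intervals reached 0.38 to 0.91 log2 units to either side of the estimate. Taken over the 10 genes, the intervals ran no further than −1.16 to 0.90 in diabetic wound against healthy wound, −1.35 to 0.81 in diabetic wound against normal skin and −1.08 to 0.75 in healthy wound against normal skin.

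**Figure D2:**
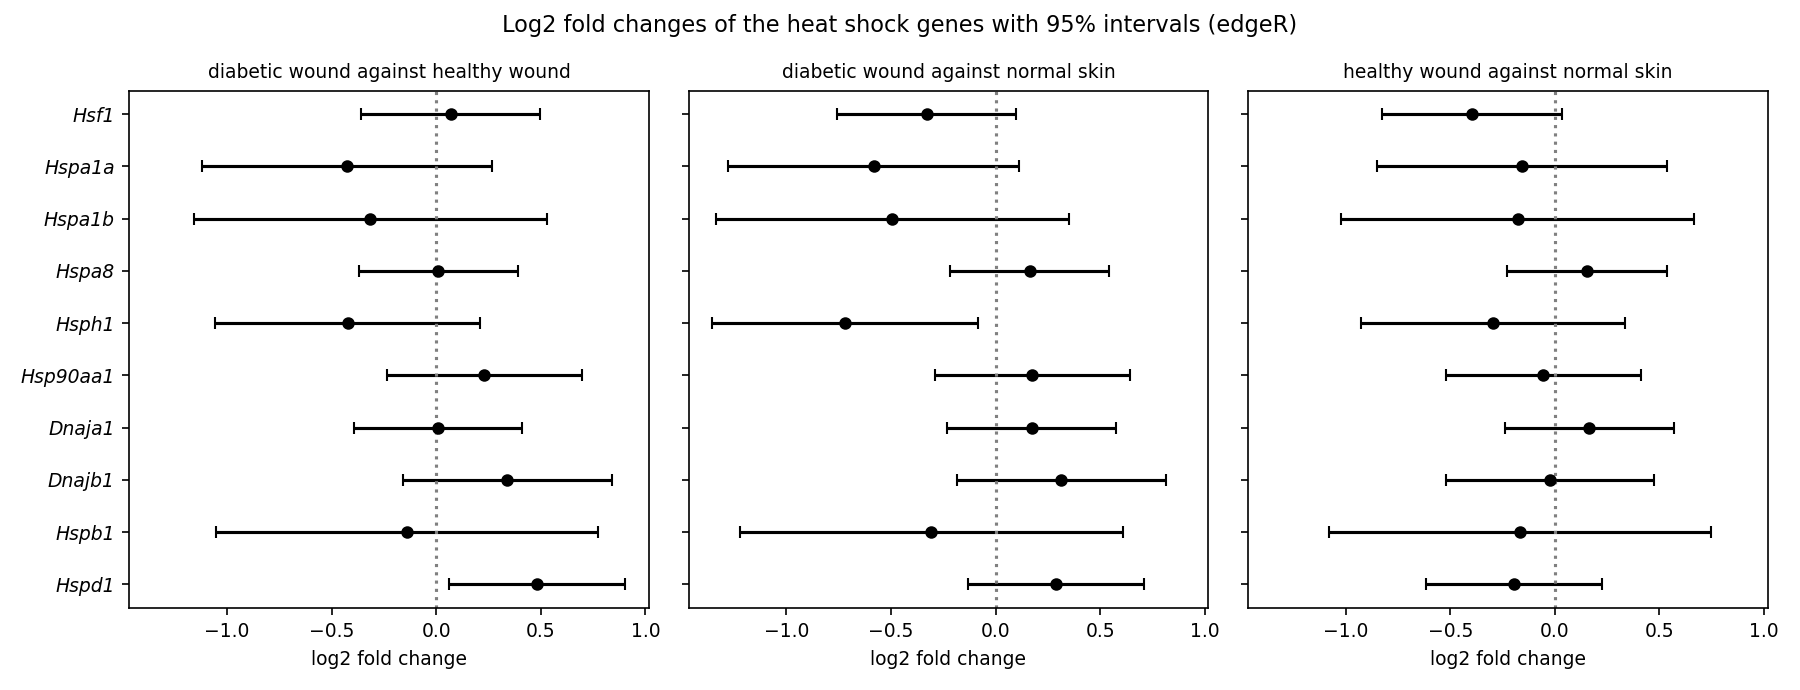
Log2 fold changes of the 10 heat shock genes (x axis; dots) with 95% intervals (bars) from the edgeR fit over 15 libraries, in 3 panels for diabetic wound against healthy wound, diabetic wound against normal skin and healthy wound against normal skin. The intervals of Hspd1 in the first panel (0.06 to 0.90) and of Hsph1 in the second (−1.35 to −0.09) leave out 0, and all the others include it.

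Hsf1, the master regulator of the heat shock response, was measured at 29.8, 30.5, 22.8, 33.1 and 39.7 CPM in diabetic wound. Healthy wound libraries held 30.7, 36.3, 34.7, 20.9 and 26.0 CPM, and normal skin held 51.5, 32.1, 43.0, 31.5 and 37.7 CPM (CPM, counts relative to the library total, scaled between libraries by TMM, with replicates 1 to 5 in order). The 3 groups overlapped, with the highest value in normal skin replicate 1. The log2 fold change was 0.07 ± 0.20 (SE) in diabetic wound against healthy wound (adjusted p = 0.848), −0.33 ± 0.20 against normal skin (adjusted p = 0.256), and −0.40 ± 0.20 in healthy wound against normal skin (adjusted p = 0.358, edgeR throughout). HSF1 is controlled mainly through its protein, so its transcript level is a poor guide to its activity.

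Hspa1a and Hspa1b code for the stress-inducible HSP70 and are the transcripts most often read as a sign of heat shock. Their coding sequences are nearly identical, so the split of reads between them is uncertain. Hspa1b had 150.3, 122.5, 109.5, 46.5 and 44.5 CPM in diabetic wound, 90.9, 212.7, 71.0, 110.0 and 103.1 CPM in healthy wound, and 149.9, 73.5, 77.0, 168.0 and 197.6 CPM in normal skin. Diabetic wound replicates 4 and 5 were the lowest of all 15 libraries and healthy wound replicate 2 the highest, and the groups overlapped throughout. Hspa1a had 30.6, 29.4, 31.3, 18.5 and 14.6 CPM in diabetic wound, 39.7, 59.2, 19.6, 25.4 and 22.9 CPM in healthy wound, and 53.8, 23.3, 31.1, 33.2 and 45.0 CPM in normal skin. The same 3 libraries held its lowest and highest values. The log2 fold changes in diabetic wound against healthy wound were −0.31 ± 0.40 for Hspa1b (adjusted p = 0.629) and −0.43 ± 0.33 for Hspa1a (adjusted p = 0.402, edgeR). Against normal skin they were −0.49 ± 0.40 (adjusted p = 0.391) and −0.58 ± 0.33 (adjusted p = 0.213), and in healthy wound against normal skin −0.18 ± 0.40 and −0.16 ± 0.33. With both genes summed into 1 row, which removes the doubt about the split, the values were −0.34, −0.51 and −0.17 in the same order of comparisons. Summing would not restore any reads left out of the counts for matching both genes.

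In bulk tissue, fewer cells of a type and less RNA per cell cannot be told apart. The 2 diabetic wound libraries low in Hspa1a and Hspa1b were also those lowest in keratinocyte markers. All 8 basal keratinocyte markers of the list were detected in every library, and they summed to 1178 CPM in diabetic wound replicate 4 and 2809 CPM in replicate 5, against 8732 to 19827 CPM in the other 3 diabetic wound libraries, 5885 to 13587 CPM in healthy wound and 3945 to 13983 CPM in normal skin. The same 2 libraries were highest in the summed adipocyte markers, but not in the mean log2 CPM of these markers. All 14 adipocyte markers were in the table, with at most 1 at 0 counts in any library, and they summed to 8936 and 6948 CPM in diabetic wound replicates 4 and 5, 1132 to 1218 CPM in the other diabetic wound libraries, 851 to 2310 CPM in healthy wound and 2703 to 4400 CPM in normal skin. By the mean log2 CPM of the 14 markers, diabetic wound replicates 4 (6.47) and 5 (5.01) lay below every normal skin library (6.49 to 7.08). Replicate 5 also lay below healthy wound replicates 1 to 4. Both still lay above the other diabetic wound libraries. The part of either marker list in the Hspa1a and Hspa1b values was not tested. With replicates 4 and 5 left out, the log2 fold change of Hspa1b was 0.11 in diabetic wound against healthy wound and −0.06 against normal skin, and that of Hspa1a was −0.14 and −0.29 (edgeR adjusted p = 0.886, 0.929, 0.847 and 0.613).

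Hspa8 codes for the constitutive HSC70, which folds new proteins and strips clathrin from vesicles. It had 1716, 1441, 1635, 1740 and 1255 CPM in diabetic wound, 1971, 1705, 1450, 1385 and 1213 CPM in healthy wound, and 1502, 1564, 1359, 1257 and 1271 CPM in normal skin. Within a group its highest library exceeded its lowest by 1.39 times in diabetic wound, 1.62 times in healthy wound and 1.24 times in normal skin, and the 3 groups covered much the same range. The log2 fold changes were 0.01 ± 0.18 in diabetic wound against healthy wound (edgeR adjusted p = 0.974, 95% interval −0.37 to 0.39), 0.16 ± 0.18 in diabetic wound against normal skin and 0.15 ± 0.18 in healthy wound against normal skin.

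The ratio of the inducible pair to the constitutive gene is free of any scaling between libraries. Counts of Hspa1a plus Hspa1b came to 10.5, 10.5, 8.61, 3.73 and 4.71% of those of Hspa8 in diabetic wound. They came to 6.63, 15.9, 6.25, 9.78 and 10.4% in healthy wound and to 13.6, 6.19, 7.95, 16.0 and 19.1% in normal skin. The group means were 7.63% ± 3.23 in diabetic wound, 9.80% ± 3.90 in healthy wound and 12.6% ± 5.41 in normal skin (SD, n = 5 each), and the ranges overlapped. Without diabetic wound replicates 4 and 5 the diabetic wound mean was 9.90% ± 1.12 (SD, n = 3). In counts Hspa1b outnumbered Hspa1a in each library, by 3.63 ± 0.938 times in diabetic wound, 3.67 ± 0.872 times in healthy wound and 3.57 ± 1.11 times in normal skin. How reads that match both genes were counted is not stated by the sources used here. Both this ratio and the ratio to Hspa8 depend on it.

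Hsph1 codes for HSP110, which reloads HSP70 with ATP and helps it to dissolve aggregates. Diabetic wound libraries held 32.6, 71.0, 35.9, 89.2 and 45.4 CPM, healthy wound libraries 87.5, 108.7, 53.2, 60.5 and 57.2 CPM, and normal skin libraries 134.2, 71.3, 79.3, 72.2 and 94.4 CPM. Replicates 1, 3 and 5 of diabetic wound lay below every library of both other groups. Replicate 2 lay just below all of normal skin but among healthy wound, and replicate 4 lay among both. The log2 fold change was −0.72 ± 0.30 in diabetic wound against normal skin, with an unadjusted p of 0.0287 and an adjusted p of 0.0984 (edgeR, 95% interval −1.35 to −0.09). It was −0.42 ± 0.30 in diabetic wound against healthy wound (adjusted p = 0.358) and −0.30 ± 0.30 in healthy wound against normal skin (adjusted p = 0.711). Without diabetic wound replicate 4 the value against normal skin was −0.97 with an adjusted p of 0.0317, the single call of a heat shock gene of the set in any of the 15 fits that left out 1 library.

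Hsp90aa1 codes for the inducible form of cytosolic HSP90, which matures kinases and steroid hormone receptors and, when secreted, has been studied as a signal for keratinocyte migration. It had 221.6, 412.2, 321.0, 291.6 and 499.8 CPM in diabetic wound, 316.7, 318.7, 256.2, 281.4 and 314.3 CPM in healthy wound, and 240.3, 395.7, 231.8, 297.3 and 380.1 CPM in normal skin. Diabetic wound held both the lowest and the highest of the 15 values. The log2 fold changes were 0.23 ± 0.22 against healthy wound (edgeR adjusted p = 0.509) and 0.18 ± 0.22 against normal skin (adjusted p = 0.592), and −0.05 ± 0.22 in healthy wound against normal skin (adjusted p = 0.951). Its signs in the diabetic wound comparisons turned to −0.10 and −0.15 without diabetic wound replicates 2 and 5.

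The J-domain proteins choose substrates for HSP70 and set off its ATPase. Dnajb1, the heat-inducible one, had 124.3, 85.8, 100.1, 63.6 and 118.4 CPM in diabetic wound, 68.7, 117.1, 72.3, 63.4 and 66.8 CPM in healthy wound, and 89.2, 63.0, 53.0, 86.7 and 103.7 CPM in normal skin. Of the 5 diabetic wound libraries 4 exceeded all healthy wound libraries but replicate 2. The log2 fold change was 0.34 ± 0.23 in diabetic wound against healthy wound (edgeR adjusted p = 0.347), 0.32 ± 0.23 against normal skin (adjusted p = 0.350) and −0.03 ± 0.23 in healthy wound against normal skin (adjusted p = 0.978). Without healthy wound replicate 2 the first of these was 0.53.

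Dnaja1, a J-domain protein carried on membranes by a farnesyl anchor, held 124.5, 141.5, 125.6, 158.6 and 140.6 CPM in diabetic wound and 134.9, 151.6, 110.5, 143.3 and 146.7 CPM in healthy wound. Normal skin held 127.4, 65.1, 131.6, 138.4 and 150.4 CPM, so that 14 of the 15 libraries lay between 110.5 and 158.6 CPM and normal skin replicate 2 stood apart below them. Its log2 fold changes were 0.01 ± 0.19, 0.17 ± 0.19 and 0.17 ± 0.19 in the 3 comparisons (edgeR adjusted p = 0.983, 0.539 and 0.759). The table's model of Dnaja1 overlaps that of Smu1 on the opposite strand by 608 bp. The library kit keeps no strand information, so reads in the overlap cannot be told apart.

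Hspb1 codes for HSP27 (HSP25 in mice), a small heat shock protein that holds unfolded proteins in large oligomers and binds actin and keratin filaments. It had the largest SD relative to its mean over the 15 libraries, and stood at 384.5, 399.4, 206.4, 360.3 and 191.3 CPM in diabetic wound, 231.6, 849.2, 241.6, 190.2 and 184.2 CPM in healthy wound, and 597.4, 243.6, 487.6, 234.8 and 344.2 CPM in normal skin. Healthy wound replicate 2 was far above its group, and 3 of the 5 diabetic wound libraries lay above the other 4 healthy wound libraries. The log2 fold changes were −0.14 ± 0.43 in diabetic wound against healthy wound (edgeR adjusted p = 0.853), −0.31 ± 0.43 against normal skin (adjusted p = 0.635) and −0.17 ± 0.43 in healthy wound against normal skin (adjusted p = 0.919). Without healthy wound replicate 2 the first turned to 0.54 and the last moved to −0.85, neither past the threshold.

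Hspd1 and its partner Hspe1 (HSP10) form the barrel and lid in which imported mitochondrial proteins fold. Hspd1 had 179.6, 245.3, 149.1, 201.0 and 300.2 CPM in diabetic wound, 163.6, 166.9, 158.1, 147.6 and 132.7 CPM in healthy wound, and 154.2, 145.1, 145.7, 193.3 and 242.5 CPM in normal skin. Diabetic wound libraries lay above every healthy wound library in 4 of 5 cases, and replicate 3 lay among them. The log2 fold change in diabetic wound against healthy wound was 0.48 ± 0.20 (1.40-fold, 95% interval 1.04 to 1.87), with an unadjusted p of 0.0276 and an adjusted p of 0.125 (edgeR). Against normal skin it was 0.29 ± 0.20 (adjusted p = 0.313), and in healthy wound against normal skin −0.20 ± 0.20 (adjusted p = 0.716). Leaving out diabetic wound replicates 2 and 5 together brought the first value down to 0.20. Hspe1, looked at for its partnership after its values were seen, had log2 fold changes of 0.40, 0.36 and −0.04 in the 3 comparisons (edgeR adjusted p = 0.216, 0.230 and 0.960). The table's models of Hspd1 and Hspe1 overlap by 112 bp on opposite strands, and pseudogene models of Hspd1 held 4.73% as many counts as Hspd1 itself.

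**Figure D3:**
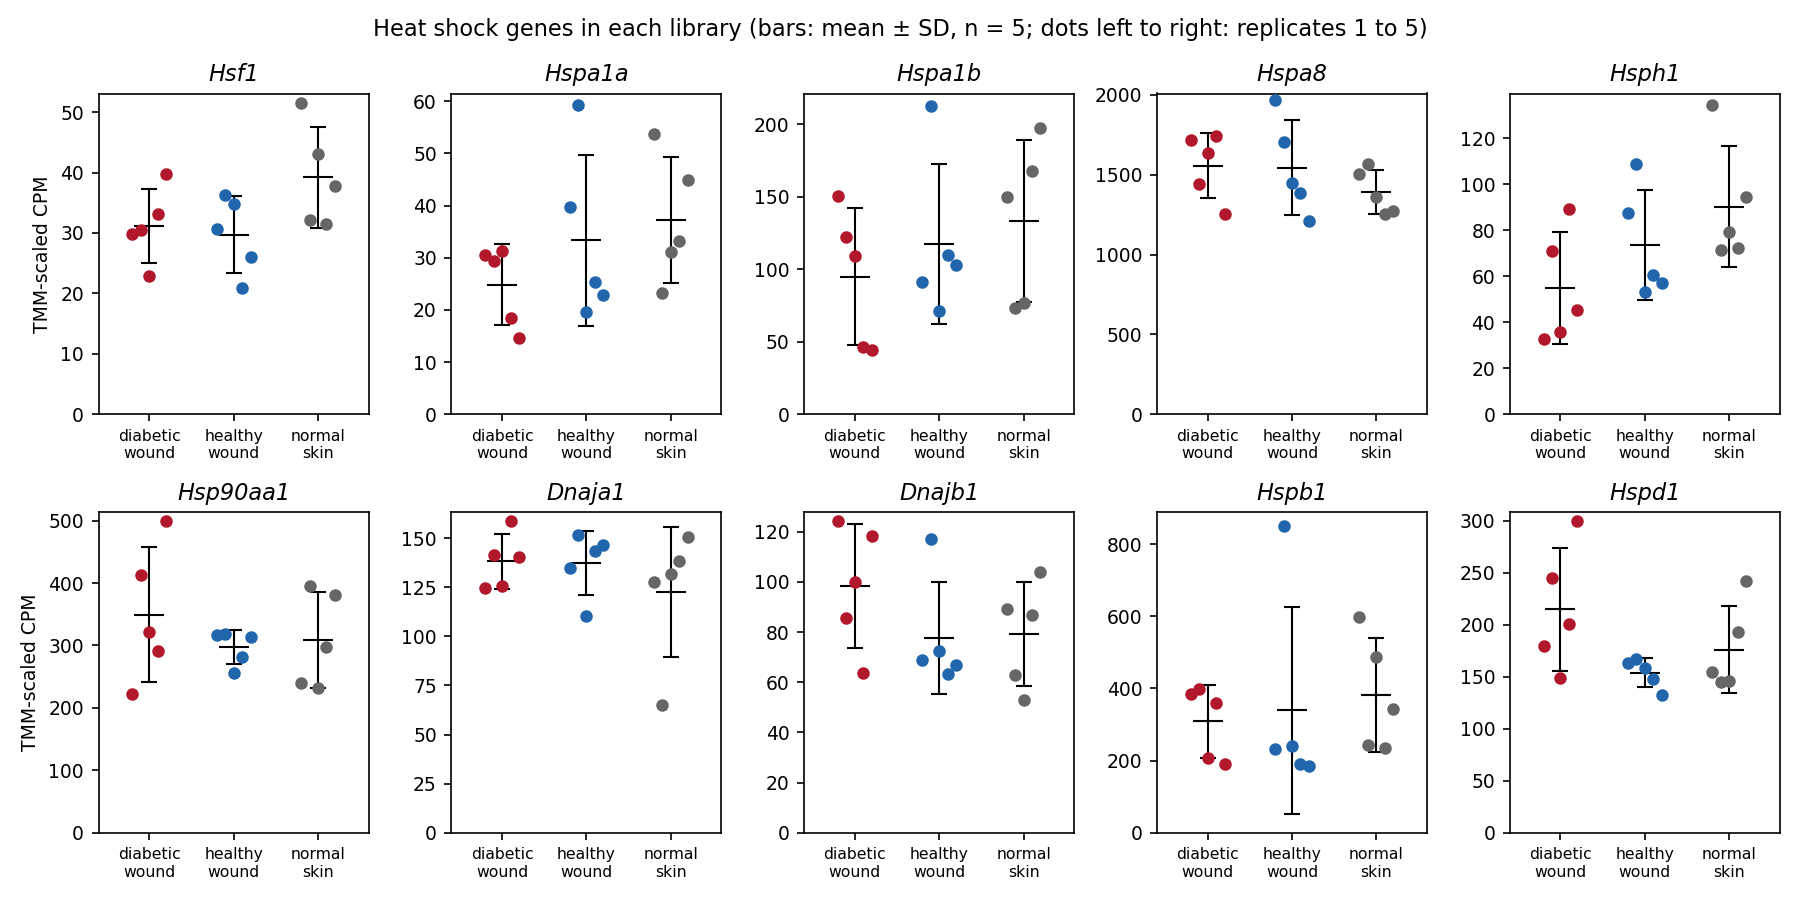
TMM-scaled CPM (y axis, a separate scale per panel starting at 0) of the 10 heat shock genes in each library of diabetic wound, healthy wound and normal skin, with dots for replicates 1 to 5 from left to right and lines for the mean ± SD (n = 5). The groups overlap in every panel, and healthy wound replicate 2 is the highest blue dot in all panels but that of Hspa8.

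Libraries of a group differed widely from one another. Healthy wound replicate 2 held the highest value of its group for 9 of the 10 genes (Hspa8 peaked in replicate 1). Of all tested genes 23.4% had their healthy wound maximum in that library, as did 38 of 84 other chaperone and related genes listed below. The 9 genes were the same when libraries were scaled by their totals alone, where 27.6% of all tested genes peaked there. Relative to the mean log2 CPM of healthy wound, that library was higher by 0.95 for Hspa1a and by 0.96 for Hspa1b. In normal skin, replicates 1 and 5 held 4 maxima each, where 15.3% and 29.7% of all tested genes had their maximum, and replicate 2 held 5 of the 10 minima, where 35.7% of all tested genes had theirs. In diabetic wound the maxima were spread over the 5 libraries, 2, 1, 1, 3 and 3 in replicates 1 to 5. Within a group the highest library exceeded the lowest by 4.61 times for Hspb1 in healthy wound, by 3.37 times for Hspa1b in diabetic wound and by 3.02 times for Hspa1a in healthy wound. The median over genes with a mean of at least 10 CPM was 2.09 in diabetic wound, 1.49 in healthy wound and 1.93 in normal skin.

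Healthy wound replicate 2 was also the library with the most hair follicle transcripts. Of 18 hair shaft and follicle markers 17 were in the table, and they summed to 7670 CPM there, against 9.06 to 1384 CPM in the other 4 healthy wound libraries. Normal skin ran from 10.1 to 4661 CPM and diabetic wound from 1.28 to 12.2 CPM, with 10 to 13 of the 17 markers at 0 counts in each diabetic wound library. Normal skin replicate 5, with the 4661 CPM, held the group's highest Hspa1b, Dnaja1, Dnajb1 and Hspd1, but its Hspb1 (344.2 CPM) was the median of its group. The part of hair follicle content in the heat shock gene values was not tested.

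**Figure D4:**
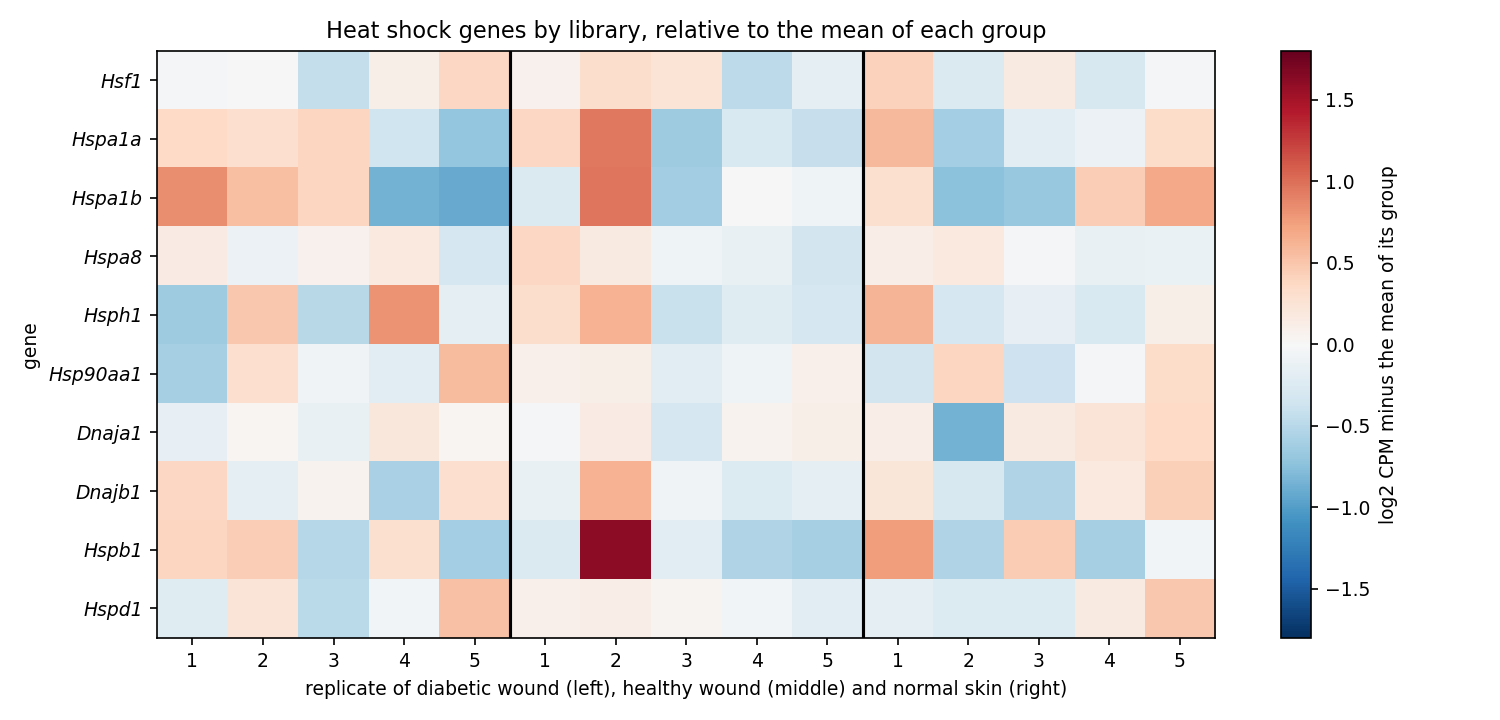
Log2 CPM of each of the 10 heat shock genes (rows) in each library (columns, replicates 1 to 5 of diabetic wound, healthy wound and normal skin from left to right) minus the mean of its group, coloured from blue (below) to red (above). Healthy wound replicate 2 is red in all rows, most for Hspb1, and diabetic wound replicates 4 and 5 are blue for Hspa1a and Hspa1b, where replicates 1 to 3 are red.

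Across the 15 libraries, Hspa1b followed Hspa1a (Pearson r = 0.84, Spearman rho = 0.80 on log2 CPM) but not Hspa8 (r = −0.03) or Hsf1 (r = −0.02). The split of reads between Hspa1a and Hspa1b is uncertain, so their correlation cannot be read as shared regulation. The genes most like Hspa1b among 10751 searched were Cdc42bpg (r = 0.93), Prkci (r = 0.93), Ptpn13 (r = 0.92), Klc3 (r = 0.91) and Phldb3 (r = 0.91). Dnajb1 was matched best by Vps54 (r = 0.85), Chmp2b (r = 0.84), Eif1ad (r = 0.83), Lemd3 (r = 0.83) and Maml3 (r = 0.83), and had r = 0.45 with Hspa1b. Hspb1 was matched best by Rab3ip (r = 0.84), Tuba4a (r = 0.82), Gstm5 (r = 0.81), Csrp3 (r = 0.80) and Shroom3 (r = 0.78), and had r = 0.65 with Hspa1a and 0.61 with Hsf1. These values describe the libraries, which share tissue content and depth, and carry no test.

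The 10 genes can be set beside 87 other genes, termed the other chaperone genes here, in 9 lists that in part share genes. Of the 87, 84 were tested. Not all code for chaperones: among them are the regulator gene Hsf2, the polyubiquitin gene Ubb and the protease genes Clpp and Lonp1. These are also among the genes called higher in diabetic wound against healthy wound. In diabetic wound against healthy wound 20 of the 84 were called higher and 2 lower, against 5.13% and 4.02% of all tested genes, with a median log2 fold change of 0.34. In diabetic wound against normal skin 11 were called higher and 4 lower, against 10.7% and 8.44% of all genes (median 0.12). In healthy wound against normal skin 0 were called higher and 1 lower by edgeR, against 0.777% and 0.35% (median −0.21, 4 called by DESeq2). At an unadjusted p under 0.05 the edgeR test held 13 of 84, against 16.3% of all genes. The calls of the diabetic wound comparisons moved with the libraries and settings. The 22 calls against healthy wound numbered 6 with no low-count filter and 11 with the 2 groups fitted alone, and the 15 calls against normal skin numbered 7 with no filter, 23 by DESeq2 and 2 with the 2 groups alone. With replicate number as a block in the fit the calls numbered 2 and 8. Without diabetic wound replicates 4 and 5, the libraries lowest in keratinocyte markers, they numbered 9 and 8. Without diabetic wound replicate 2 the 22 calls against healthy wound numbered 2, without replicate 5 they numbered 6, and without replicate 1 they numbered 11. They numbered 5, 11, 9, 6 and 3 without healthy wound replicates 1 to 5, and 0 without diabetic wound replicates 2 and 5 together. Against normal skin the 15 calls numbered 7 and 6 without diabetic wound replicates 2 and 5, 10 without normal skin replicate 1 or replicate 2, and 1 without diabetic wound replicates 2 and 5 together. Against healthy wound the calls of Hspa9 and Hsf2 held in each of the 15 fits without 1 library and the other 20 were lost without diabetic wound replicate 2. Against normal skin those of Hspa9, Cct2, Chordc1, Dnajb6 and Dnajc5 held in each, and the other 10 were lost without diabetic wound replicate 2 or replicate 5 or both. With the 2 groups alone the calls of Hspa9, Cct2, Dnajb6 and Dnajc5 against normal skin were lost, those of Dnajb6 and Dnajc5 were also lost with no low-count filter, and that of Hspa9 was lost without diabetic wound replicates 4 and 5.

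Diabetic wound replicates 2 and 5 were the libraries with the least fibrillar collagen RNA. Counts of Col1a1, Col1a2 and Col3a1 made up 0.226% of the total in replicate 2 and 0.0322% in replicate 5, against 1.08 to 1.37% in the other diabetic wound libraries, 2.18 to 9.39% in healthy wound and 2.88 to 4.90% in normal skin. All diabetic wound libraries lay below both other groups in this share. The 10 fibroblast markers, with these collagen genes among them, summed to 1820 to 16251 CPM in diabetic wound. They summed to 22942 to 103993 CPM in healthy wound and 29642 to 53451 CPM in normal skin. By edgeR 4 were called lower against healthy wound (median −1.15) and 2 against normal skin (median −0.86). The shares called lower over all tested genes were 4.02% and 8.44%. Diabetic wound replicates 2 and 5 were also highest in immediate early genes, which climb with tissue handling as well as with injury. All 16 of these were detected in every library, and they summed to 3866 and 5268 CPM in replicates 2 and 5, 1789 to 3397 CPM in the other diabetic wound libraries, 1420 to 2076 CPM in healthy wound and 1066 to 2187 CPM in normal skin. Neutrophil markers, all 18 of them in the table and at most 4 at 0 counts in any library, summed to 1384 to 5141 CPM in diabetic wound, 964 to 4739 CPM in healthy wound and 204 to 571 CPM in normal skin. Of the 15 tested, 2 were called higher in diabetic wound against healthy wound (median log2 fold change 0.71) and 11 against normal skin (median 3.58). The shares called higher over all tested genes were 5.13% and 10.7%. The part of any of these in the chaperone results was not tested.

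Of 11 genes for mitochondrial chaperones and proteases beside Hspd1, 5 were called higher and 0 lower in diabetic wound against healthy wound. The shares over all tested genes were 5.13% and 4.02%. The 5 were Hspa9, Clpx, Clpp, Lonp1 and Grpel1, and the median log2 fold change of the 11 was 0.38. In diabetic wound against normal skin 4 of the 11 were called higher (median 0.25), Hspa9, Grpel1, Clpx and Clpp, against 10.7% of all genes. Hspa9, the mitochondrial HSP70 that pulls proteins through the inner membrane, had 364, 548, 251, 462 and 669.8 CPM in diabetic wound, 195, 213, 206, 192 and 171 CPM in healthy wound, and 286, 239, 243, 277 and 271 CPM in normal skin. All diabetic wound libraries lay above healthy wound, and 4 of 5 lay above all of normal skin. For 9.8% of all tested genes diabetic and healthy wound did not overlap. Hspa9 rose by 1.23 ± 0.21 against healthy wound (edgeR adjusted p = 0.0108) and by 0.80 ± 0.21 against normal skin (adjusted p = 0.0186). Skeletal muscle, a tissue rich in mitochondria, was uneven among the libraries. Its 19 markers were all in the table with at most 1 at 0 counts in any library, and they summed to 11335, 16550, 2708, 19997 and 25069 CPM in diabetic wound replicates 1 to 5, 1965 to 13495 CPM in healthy wound and 4727 to 42478 CPM in normal skin. Within diabetic wound, replicate 3 was lowest and replicate 5 highest in both the muscle sum and Hspa9. By the mean log2 CPM of the muscle markers replicate 3 was lowest too (6.42), but replicate 4 was highest (9.11), with replicate 5 at 8.78. Of the 18 muscle markers tested 15 had positive log2 fold changes against healthy wound and 2 against normal skin (medians 0.90 and −0.93). By edgeR 0 and 3 were called (5 and 6 at an unadjusted p under 0.05). Over all tested genes the shares were 9.15% and 19.1% (28.8% and 35.8% at the unadjusted threshold). The part of muscle in the Hspa9 values was not tested. The 5 calls against healthy wound numbered 1 and 2 without diabetic wound replicates 2 and 5. They numbered 2, 3, 3, 3 and 2 without healthy wound replicates 1 to 5, and 3 without normal skin replicate 1, 3 or 4. The 4 calls against normal skin numbered 1 and 2 without diabetic wound replicates 2 and 5. With the pair lowest in keratinocyte markers left out, the 5 and 4 calls numbered 2 and 0, and the log2 fold change of Hspa9 against normal skin was 0.56 (adjusted p = 0.0874).

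The cytosolic chaperonin TRiC folds actin and tubulin, and prefoldin hands them over. All 14 of these genes had positive log2 fold changes in both diabetic wound comparisons (medians 0.52 against healthy wound and 0.35 against normal skin). Against healthy wound 6 were called, Cct2, Tcp1, Cct7, Cct3, Cct5 and Cct6a, and against normal skin Cct2 alone. Over all tested genes 5.13% and 10.7% were called higher in these comparisons. Cct2 rose by 0.79 ± 0.17 (edgeR adjusted p = 0.0178) and 0.69 ± 0.17 (adjusted p = 0.0131). The 6 calls numbered 2, 0 and 1 without diabetic wound replicates 1, 2 and 5, 1, 4, 1, 1 and 0 without healthy wound replicates 1 to 5, and 3 without diabetic wound replicates 4 and 5 together.

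Of 14 J-domain genes other than Dnaja1 and Dnajb1, 5 were called higher in diabetic wound against healthy wound (median 0.40). They were Dnajc2, Dnajc21, Dnajc5, Dnaja2 and Dnajb6, and over all tested genes 5.13% were called higher. Against normal skin 2 were called higher (median 0.01), Dnajc5 and Dnajb6, against 10.7% of all tested genes. Dnajc5, the cysteine string protein of secretory vesicles, rose by 0.52 ± 0.13 (edgeR adjusted p = 0.0285) and 0.57 ± 0.13 (adjusted p = 0.0103), with diabetic wound libraries at 184 to 264 CPM, healthy wound at 144 to 154 CPM and normal skin at 132 to 161 CPM. The 5 calls against healthy wound numbered 3, 0 and 1 without diabetic wound replicates 1, 2 and 5. They numbered 0, 2, 2, 0 and 0 without healthy wound replicates 1 to 5, 3 without normal skin replicate 1, 3 or 4, and 0 without diabetic wound replicates 4 and 5 together.

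Of 8 HSP70 and HSP110 genes beside Hspa1a, Hspa1b, Hspa8 and Hsph1, 0 were called by edgeR in any comparison, against 9.15%, 19.1% and 1.13% of all tested genes, and 1, 3 and 1 had an unadjusted p under 0.05, against 28.8%, 35.8% and 16.3%. Their medians were 0.00, −0.15 and 0.05. The smallest p values were those of Hspa12b in diabetic wound against healthy wound (−1.08 ± 0.45, adjusted p = 0.133) and of Hspa12a in diabetic wound against normal skin (−0.74 ± 0.27, adjusted p = 0.0693). Without diabetic wound replicates 4 and 5, Hspa12b was called lower in both (−1.59 and −1.55, adjusted p = 0.0274 and 0.0114). Of 9 HSP70 nucleotide exchange factors and partners, Bag5 alone was called, higher in diabetic wound by 0.70 ± 0.19 against healthy wound (adjusted p = 0.0351) and by 0.57 ± 0.19 against normal skin (adjusted p = 0.0458). The shares called higher over all tested genes were 5.13% and 10.7%. The Bag5 calls held in 7 and 2 of the 15 fits without 1 library. Of 7 tested small heat shock protein genes beside Hspb1, 0 were called by edgeR in diabetic wound against healthy wound (1 at an unadjusted p under 0.05, Hspb9). In diabetic wound against normal skin 1 was called higher and 1 lower. The shares called over all tested genes were 9.15% and 19.1%. Against normal skin Hspb9, at 1.56 to 4.50 CPM in diabetic wound and 0 to 1.25 CPM in normal skin, rose by 2.43 ± 0.71 (adjusted p = 0.0290). Hspb6, which is abundant in muscle, fell by 2.22 (adjusted p = 0.0318), with 27.2 to 136.8 CPM in diabetic wound and 90.8 to 703.5 CPM in normal skin. The part of the skeletal muscle markers given above in the Hspb6 value was not tested.

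Of 14 tested genes for HSP90 and its co-chaperones beside Hsp90aa1, 2 were called in diabetic wound against healthy wound, Fkbp5 higher and Chordc1 lower. Against normal skin 3 were called, Fkbp5 higher and Chordc1 and Fkbp4 lower. Over all tested genes 9.15% and 19.1% were called in these comparisons. Fkbp5, a brake on steroid receptors that glucocorticoids induce, rose by 0.98 ± 0.26 against healthy wound (edgeR adjusted p = 0.0330) and by 0.76 ± 0.26 against normal skin (adjusted p = 0.0493). The Fkbp5 calls held in 7 and 2 of the 15 fits without 1 library, and the call against normal skin was also lost with RLE scaling. Chordc1, a heat-inducible HSP90 partner, fell by 0.68 on the log2 scale against healthy wound (adjusted p = 0.0385) and by 0.75 against normal skin (adjusted p = 0.0149), with 24.9 to 48.5 CPM in diabetic wound, 45.5 to 71.5 CPM in healthy wound and 50.7 to 61.7 CPM in normal skin. Its calls held in 7 and 15 of the 15 fits without 1 library. Fkbp4, a partner of HSP90 in steroid receptor transport, fell by 0.73 against normal skin (adjusted p = 0.0293).

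Of 16 other genes known to be heat-inducible through HSF1, 1 was called higher and 2 lower in diabetic wound against healthy wound (median 0.48). In diabetic wound against normal skin 1 was called higher and 3 lower (median 0.01). Over all tested genes the shares called higher and lower were 5.13% and 4.02%, and 10.7% and 8.44%, in the same order. The polyubiquitin gene Ubb rose by 0.84 ± 0.23 (edgeR adjusted p = 0.0360) and 0.82 ± 0.23 (adjusted p = 0.0236). Its calls held in 7 and 14 of the 15 fits without 1 library. Serpinh1, the collagen chaperone HSP47, fell by 1.84 against healthy wound (adjusted p = 0.0175) and by 1.22 against normal skin (adjusted p = 0.0377). The collagen shares and fibroblast marker sums given above were lower in diabetic wound too. Their part in the Serpinh1 values was not tested. Chordc1 and Fkbp4 are on this list as well.

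Of 4 tested regulators beside Hsf1, Hsf2 alone was called, in diabetic wound against healthy wound and in healthy wound against normal skin. Over all tested genes 9.15% and 1.13% were called in these comparisons. Hsf2, a partner of HSF1, had 39.7, 38.8, 20.2, 27.5 and 43.9 CPM in diabetic wound, 17.0, 17.5, 12.4, 10.5 and 16.4 CPM in healthy wound, and 36.6, 42.2, 32.7, 27.3 and 24.0 CPM in normal skin. Healthy wound lay below both other groups with no overlap. For 9.8% of all tested genes healthy wound did not overlap diabetic wound, and for 6.75% it did not overlap normal skin. In diabetic wound Hsf2 was higher than in healthy wound by 1.20 ± 0.24 (edgeR adjusted p = 0.0161), and in healthy wound it was lower than in normal skin (−1.14 ± 0.24, adjusted p = 0.0360), a call that held in 7 of the 15 fits without 1 library. The log2 fold change in diabetic wound against normal skin was 0.06.

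**Figure D5:**
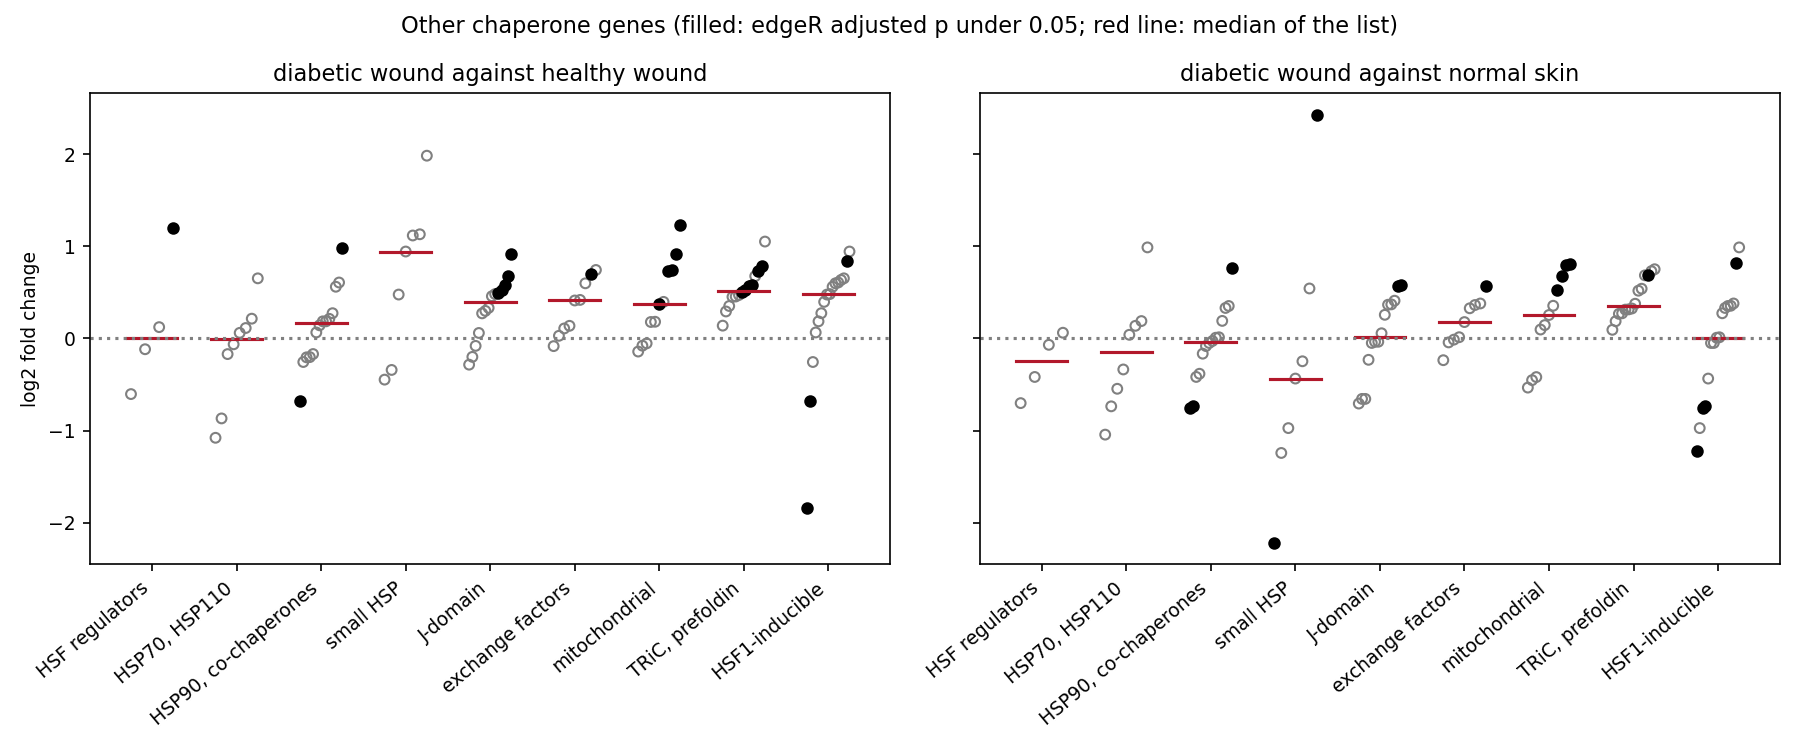
Log2 fold changes (y axis) of the other chaperone genes by list (x axis), in diabetic wound against healthy wound (left) and against normal skin (right), with filled dots for genes called at an edgeR adjusted p under 0.05 and a red line for the median of each list. All 14 TRiC and prefoldin genes lie above 0 in both panels, and genes on more than 1 list appear in each.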

How the data were processed

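The 10 genes and all gene lists were chosen with earlier results of these data known. The authors deposited 1 table of whole-number read counts per gene, with raw counts for 15 libraries, and built the libraries from poly-A RNA with an unstranded kit, per the labels' protocols. The alignment and counting tools, strand option and build are not stated by the sources used here. Diabetic columns are numbered otherwise in the table and were matched to replicates by the labels.

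Tests on these counts used the quasi-likelihood F-test of edgeR 4.0.16 in R 4.3.3 (robust, TMM, filterByExpr), in 1 fit over 3 groups with 12 residual degrees of freedom and Benjamini-Hochberg adjustment over 17122 genes. SE is the log2 fold change over the root of F, and 95% intervals use the moderated degrees of freedom. CPM values are TMM-scaled, and TPM used the deposited gene lengths. Likeness used log2 CPM with a prior count of 2 among genes with a mean of at least 10 CPM. The procedure was tested on simulated data. Depth was 15.7 to 17.8 M counts per library.

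All 10 genes are named in each comparison. Of each chaperone list the called genes with the smallest p were named, at most 4 per list and comparison, or the gene with the smallest p where none was called; other called genes are named where a list has at most 6, which was decided with their values known. The 5 most similar genes were named for Hspa1b, Dnajb1 and Hspb1, leaving out symbols beginning with Gm or ending in Rik.

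Alternatives were RLE scaling, scaling by library size, every gene with a count, at least 1 CPM in 5 libraries, DESeq2 1.42.0, limma-voom (limma 3.58.1), the 2 compared groups alone, a replicate block, Hspa1a and Hspa1b summed, and leaving out each library. The fits without diabetic wound replicates 2 and 5, and without replicates 4 and 5, were chosen after seeing the data.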

Additional observations from a re-analysis of the deposited data

Results flagged for a closer look

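A group was singled out where its highest or lowest library stood apart from the other 4 by more than 0.71 of the group's range. Chance gives this in about 1 in 20 groups of normally distributed values. CPM was not put on a log scale for it, so that rate is only approximate. Of 36 groups tested 4 were singled out, 3 of them through the same library, so the 4 are not independent. Healthy wound replicate 2 was high for 3 genes: Hspb1 had 849 CPM there against 184 to 242 CPM in the other 4 libraries, Hspa1b had 212.7 CPM against 71.0 to 110.0 CPM, and Dnajb1 had 117 CPM against 63.4 to 72.3 CPM. Normal skin replicate 2 was low for Dnaja1, with 65.1 CPM against 127 to 150.4 CPM. Without healthy wound replicate 2 the log2 fold changes in diabetic wound against healthy wound were 0.54 for Hspb1, 0.01 for Hspa1b and 0.53 for Dnajb1, and without normal skin replicate 2 that of Dnaja1 in diabetic wound against normal skin was 0.03.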

How the results depend on the processing

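No member of the set was called in any comparison under any alternative, except Hsph1 in diabetic wound against normal skin without diabetic wound replicate 4 (0 to 1 calls over the fits without 1 library). Signs of members near 0 turned in diabetic wound against healthy wound: Hspa8 was −0.016 by library size, −0.018 with no low-count filter and −0.0093 with the 2 groups alone, Dnaja1 −0.010, −0.017 and −0.0084 in the same settings, and Hspb1 0.079 by limma-voom. Without the 2 diabetic wound libraries lowest in collagen, Hsp90aa1 was −0.10, Dnaja1 −0.012, Hsf1 −0.058 and Hspa12a 0.19 against healthy wound, and Hsp90aa1 −0.15 and Hsf2 −0.16 against normal skin. Without the 2 lowest in keratinocyte markers, Hspa1b was 0.11, Dnaja1 −0.076, Hsf1 −0.10 and Hspa12a 0.022 against healthy wound. Bag1 against normal skin was −0.0099 by library size, −0.025 with no filter and −0.023 by limma-voom. The cause was not tested.

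Fits without 1 library gave both signs, none called, for Hspa8 (−0.065 to 0.11), Dnaja1 (−0.066 to 0.054), Hsf1 (−0.039 to 0.16), Hspa1b (−0.55 to 0.011), Hspb1 (−0.30 to 0.54), Hspb6 (−0.72 to 0.11) and Hspa12a (−0.30 to 0.10) in diabetic wound against healthy wound. They did so for Bag1 (−0.079 to 0.13) and Hsf2 (−0.044 to 0.20) in diabetic wound against normal skin. In healthy wound against normal skin they did so for Dnajb1 (−0.22 to 0.094), Hsp90aa1 (−0.13 to 0.064), Hspa1a (−0.47 to 0.026), Hspa1b (−0.51 to 0.0098), Hspb1 (−0.85 to 0.062), Grpel1 (−0.076 to 0.14), Hspa12b (−0.10 to 0.21) and Ubb (−0.11 to 0.11).

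Counts of other chaperone genes called moved more. Against healthy wound the 22 calls were 6 with no low-count filter, 11 with the 2 groups alone, 0 without the 2 libraries lowest in collagen, 9 without the 2 lowest in keratinocyte markers and 2 to 28 without 1 library. Against normal skin the 15 calls were 7 with no filter, 23 by DESeq2, 2 with the 2 groups alone, 1 and 8 without those pairs and 6 to 19 without 1 library. In healthy wound against normal skin the 1 call was 0 with no filter, 4 by DESeq2, 2 without the pair lowest in keratinocyte markers and 0 to 1 without 1 library.

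Same-numbered libraries were not alike throughout: of 15 such pairs 5 correlated above 0.1 (−0.21 to 0.24) and 3 matched their own number best. Of those 5, 4 were in healthy wound against normal skin, at 0.24, 0.10, 0.23 and 0.12 for numbers 1, 3, 4 and 5. Number 2 was at −0.054 there. This check cannot show whether same-numbered libraries of these groups shared a batch, and the main fit had no block. With a replicate block the chaperone calls were 2 and 8 in the diabetic wound comparisons, Hspb1 was 0.026 and Hspb6 0.10 against healthy wound, and no member was called.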
